A study of Arabidopsis thaliana with 3 samples.

Results

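The genes described here encode the subunits of translation elongation factor 1 (EF1) of Arabidopsis thaliana, the 4 copies of EF1-alpha and the genes of the exchange complex EF1B. They are 10 loci, and a feature of the array was paired with 9 of them, each with 1 feature, out of 28785 features on the array. EF1-alpha is measured at AT1G07920, AT1G07930, AT1G07940 and AT5G60390, EF1B-alpha at AT5G12110 and AT5G19510, EF1B-beta at AT2G18110, and EF1B-gamma at AT1G09640 and AT1G57720. The second EF1B-beta locus, AT1G30230, had no paired feature and is not analysed here. The family was chosen by the difference between the transgenic lines and wild type in these same arrays, where AT1G07920 stood among the largest rises, so that contrast is given below as a description of the EF1 genes with no test.

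EF1-alpha is the GTPase that brings each aminoacyl-tRNA to the ribosome during protein synthesis, and it is among the most abundant proteins of the cytosol. After the tRNA is delivered, the GDP form of EF1-alpha is recharged with GTP by EF1B, in which the plant alpha and beta subunits carry the nucleotide exchange activity and the gamma subunit is a structural partner. In plants EF1-alpha transcripts are known to be high in growing tissue, and single EF1-alpha genes are widely used as references for expression measurements.

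Total RNA of rosette leaves was measured on 3 one-colour arrays of plants aged 2 weeks in the Col-0 accession. Wild type was represented by 1 array, and plants that carry AtMYB23SRDX under the 35S promoter by 2 arrays, numbered 41 and 45 in the labels and called line 41 and line 45 here. The labels name them only as transgenic plants with these numbers, and that they are separate transgenic lines is assumed. The 35S promoter of cauliflower mosaic virus is active in most plant tissues, MYB23 is a transcription factor known from trichome formation, and SRDX is a plant repression motif fused to it. The labels do not say how many plants went into a sample, and the lone wild-type array enters every difference from wild type, so neither its own spread nor an error particular to it could be measured. The 99th percentile of the array's values was 9.62 in wild type, below line 41 (10.63) and line 45 (10.54), and the part of this in the differences of bright features was not tested. In bulk leaf tissue fewer cells of a type and less RNA per cell cannot be told apart. Of 12 leaf markers of photosynthesis 3 were measured (RCA, LHCB4.1 and LHCB4.2), and they lay between 9.53 and 11.9 on the log2 scale in wild type, 12.3 and 14.1 in line 41, and 11.6 and 13.8 in line 45. The root hair expansin genes EXPA7 and EXPA18 lay between 4.96 and 5.72 in all arrays, near the level of 5.64 under which features were treated as dim, and no feature was paired with the 6 markers of dividing cells or the 4 of flower organs.

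The EF1-alpha copy AT1G07920 had the greatest difference of the family. Its feature read 7.37 in wild type, against 11.27 in line 41 and 11.07 in line 45 on the log2 scale. Both lines were thus far above wild type and close to each other, 14.9-fold higher in line 41 and 13.0-fold higher in line 45. The gap of 0.20 between the lines is small beside the mean difference of 3.79 from wild type. Within each array the same feature moved from percentile 83.9 of all features in wild type to 99.5 in line 41 and 99.4 in line 45.

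AT5G60390, the EF1-alpha copy commonly used as a reference gene, read 6.48 in wild type, against 8.10 in line 41 and 7.94 in line 45. It was higher in both lines, by 3.08-fold and 2.75-fold, with a mean log2 difference of 1.54 and a gap of 0.16 between the lines. The third copy, AT1G07940, read 7.43, 7.89 and 7.72 in the same order of arrays. Its log2 differences of 0.47 and 0.30 were in the same direction and under 2-fold, and the gap between the lines was 0.17 against a mean of 0.38.

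AT1G07930 was dim in wild type, with 5.09 there, 5.81 in line 41 and 6.27 in line 45. It passed the filter on dim features only through the lines, since its wild-type value lay under the filter's level of 5.64. Measured against that level, the mean of the lines was at least 1.32-fold higher. The log2 differences as measured were 0.72 in line 41 and 1.18 in line 45, and the gap of 0.46 between the lines was the greatest among the 9 EF1 features.

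The 4 EF1-alpha copies therefore did not move by like amounts. AT1G07920 exceeded AT1G07940 by 3.43 in line 41 and 3.40 in line 45 in its log2 difference from wild type, and AT5G60390 by 2.27 and 2.24. By order in the RefSeq table of assembly TAIR10.1, AT1G07930 and AT1G07940 are direct neighbours on chromosome 1, and AT1G07920 precedes them with 1 annotated pseudogene in between, while AT5G60390 is on chromosome 5. The copy with the greatest difference and the copy with the smallest thus belong to the same tandem group. EF1-alpha copies are nearly identical in their coding sequence, the probe sequences were not used here, and how far each feature tells the copies apart was not tested.

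**Figure D1:**
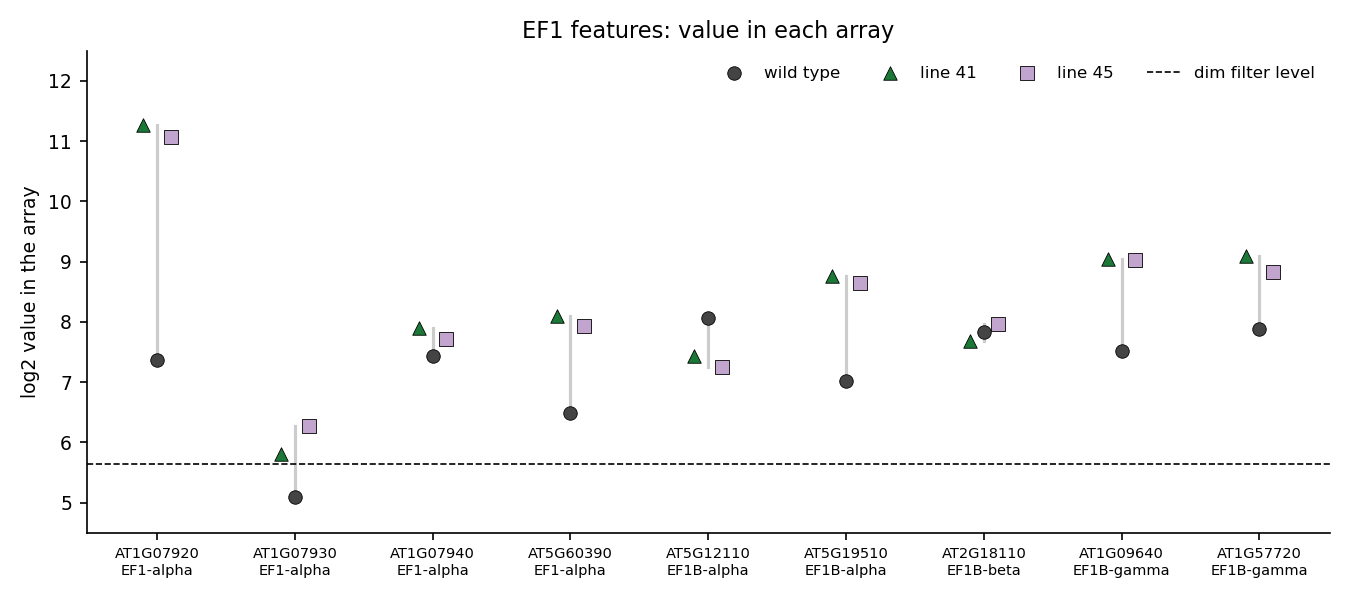
Log2 value of each EF1 feature (horizontal axis, by locus and subunit) in the wild-type array (circles), line 41 (triangles) and line 45 (squares), with the level of the dim filter at 5.64 as a dashed line. AT1G07920 stands far above wild type in both lines, AT5G12110 lies below it in both, and AT1G07930 starts under the dim level.

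The EF1B-alpha copies, whose products catalyse nucleotide exchange, went opposite ways. AT5G19510 read 7.02 in wild type, against 8.77 in line 41 and 8.65 in line 45, which is 3.35-fold and 3.098-fold higher. AT5G12110 read 8.06 in wild type, against 7.44 in line 41 and 7.25 in line 45, with log2 differences of -0.62 and -0.81. It was the only EF1 feature lower than wild type in both lines, by 1.64-fold in the mean of the lines. The log2 difference of AT5G12110 minus that of AT5G19510 was -2.37 in line 41 and -2.44 in line 45, whereas the lines differed by 0.19 for AT5G12110 and 0.11 for AT5G19510.

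The EF1B-beta gene AT2G18110, of the other exchange subunit, read 7.83 in wild type, against 7.69 in line 41 and 7.97 in line 45. Wild type lay between the lines, the mean log2 difference was -0.0027, and the gap of 0.28 between the lines was larger than either difference from wild type.

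Both EF1B-gamma genes, for the structural subunit, were higher in the lines. AT1G09640 read 7.51 in wild type, against 9.04 in line 41 and 9.03 in line 45, a log2 difference of 1.53 and 1.52. These lines lay closer to each other, 0.0053 apart, than in any other EF1 feature. AT1G57720 read 7.89, 9.09 and 8.83 in the same order, which is 2.30-fold higher in line 41 and 1.92-fold higher in line 45. The gamma copies thus moved in the same direction and differed by 0.33 in line 41 and 0.58 in line 45.

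Of the 9 EF1 features, 7 were higher than wild type in both lines, 1 was lower in both and 1 lay on either side. At least 2-fold higher in both lines were 4 (AT1G07920, AT5G60390, AT5G19510 and AT1G09640), 2 of EF1-alpha and 2 of EF1B, and 0 were at least 2-fold lower in both. Over the 16905 features tested on the array, 9.77% were at least 2-fold higher in both lines and 1.44% at least 2-fold lower, and nothing is read from this comparison since the same contrast chose the family. All 9 features passed the dim filter, 8 of them with every array above its level. The median of the mean log2 differences was 1.07 over the 9 EF1 features, 1.24 over the 4 of EF1-alpha and 1.07 over the 5 of EF1B, beside -0.038 over all features tested. The leaf markers were higher in the lines as well, where the log2 of their summed signal was 12.7 (wild type), 15.2 (line 41) and 14.8 (line 45), and their part in the EF1 differences was not tested.

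**Figure D2:**
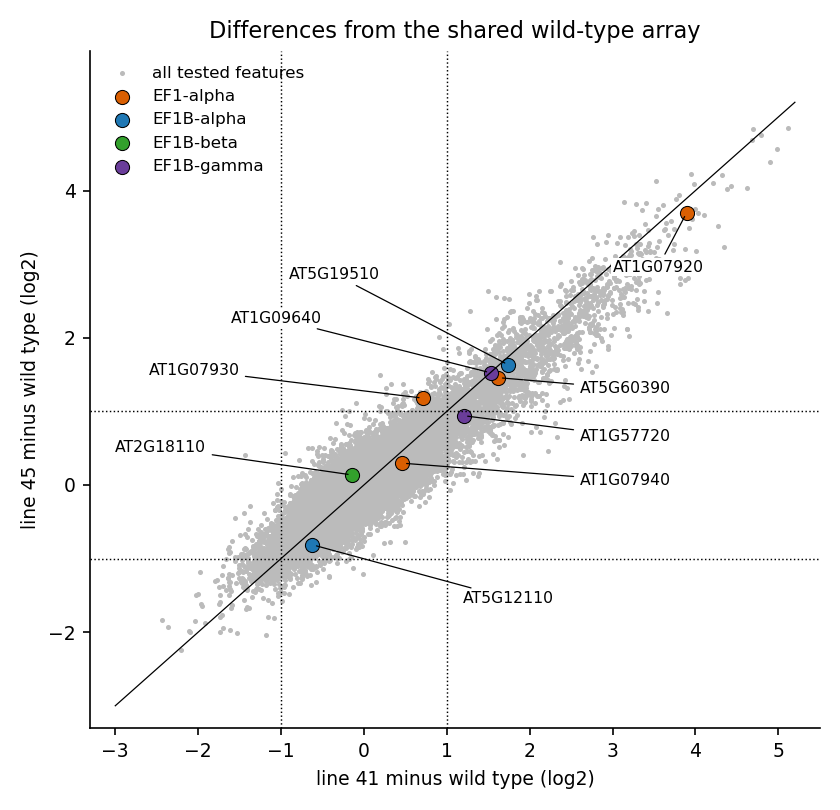
Log2 difference from wild type in line 41 (horizontal axis) and line 45 (vertical axis) for all 16905 tested features (grey) and the 9 EF1 features (coloured by subunit), with dotted lines at 2-fold and a line of equal difference. Both axes share the wild-type array, so features spread along the diagonal whatever its value, and 4 EF1 features lie beyond 2-fold in both lines.

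Line 41 and line 45 were compared directly, since that difference does not use the wild-type array. The family was chosen by the contrast with wild type, and whether small gaps between the lines played a part in that choice is not known. With 1 array each there is no test. The EF1 features differed between the lines by -0.46 to 0.26 on the log2 scale (line 41 minus line 45). Their median was 0.16, beside -0.0023 for the same signed difference over all tested features. Line 41 was higher in 7 of the EF1 features, and line 45 in AT1G07930 and AT2G18110. The share of all tested features higher in line 41 was not computed, so nothing is read from the count of 7. Over all tested features the absolute difference between the lines had a median of 0.18 and a 90th percentile of 0.49, so every one of the 9 EF1 features lay below that 90th percentile. AT1G07930 came closest to it, with 11.9% of tested features further apart.

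The EF1 differences were also computed after other ways of bringing the arrays to one scale. Under the deposited scale, centring on the median, centring on the 75th percentile and quantile normalization, the mean log2 difference of AT1G07920 ran from 3.34 to 3.85, that of AT5G19510 from 1.51 to 1.75, that of AT5G60390 from 1.46 to 1.60 and that of AT1G09640 from 1.26 to 1.59. These 4 stayed at least 2-fold higher in both lines under all 4 scalings. AT5G12110 stayed lower, from -0.96 to -0.66, and AT1G57720 went from 1.13 down to 0.76 under quantile normalization, where it lay below AT1G07930 at 1.03. AT2G18110 had no settled direction, with means between -0.23 and 0.057.

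**Figure D3:**
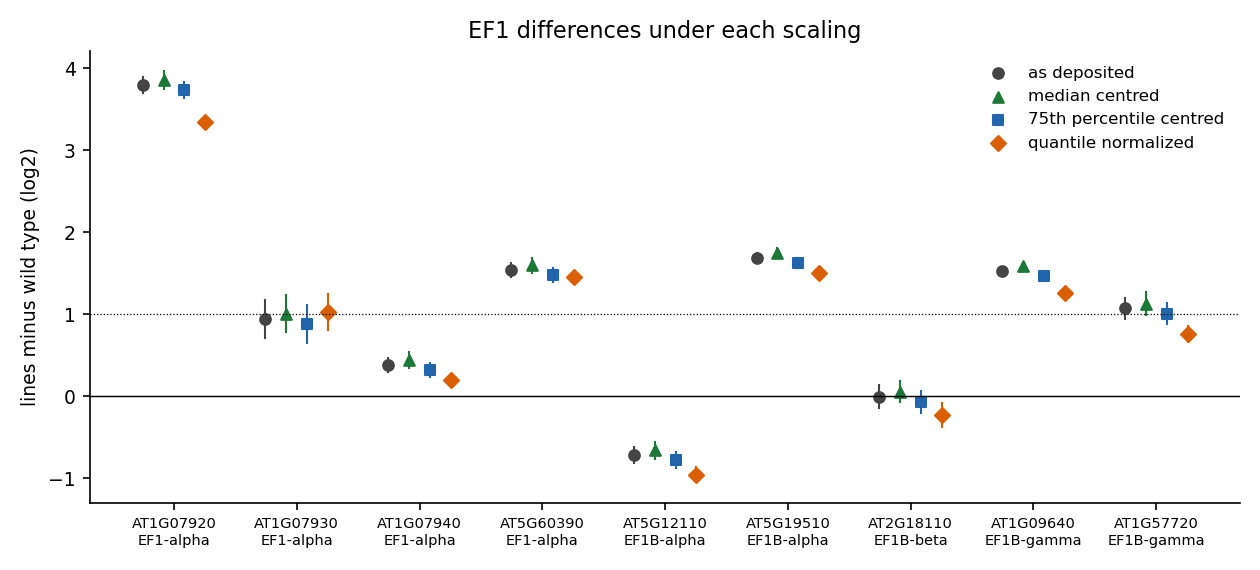
Log2 difference of the lines from wild type for each EF1 feature under 4 scalings, with the mean of line 41 and line 45 as the symbol and the values of the lines as the ends of the bar. Quantile normalization lowers every EF1 feature except AT1G07930, and the order among the copies of EF1-alpha is the same under each scaling.

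Other genes of protein synthesis were read from the fit over all features, in lists written with earlier results of these data known. Over all 16905 tested features limma called 14.6% higher and 7.27% lower, and without the filter on dim features it made 0 calls, in these lists too, with 7167 features at an unadjusted p under 0.05. Of 11 further elongation and termination factors 3 had a feature and 2 were tested. Of these 0 passed limma in either direction, with 1 higher at an unadjusted p under 0.05. The third, PEL1 (AT4G27650), read 4.84, 5.44 and 5.004 in wild type, line 41 and line 45 and lay under the dim filter. AT1G18070, a gene of the release factor eRF3, whose protein is a GTPase related to EF1-alpha, read 8.63 in wild type, against 9.18 in line 41 and 9.38 in line 45 (log2 change 0.65 ± 0.24 SE from 2 lines and 1 wild-type array; limma, adjusted p = 0.0918). After quantile normalization the log2 change of AT1G18070 was 0.17 (limma, adjusted p = 0.615). AT5G10630, whose protein is a further relative of EF1-alpha similar to yeast Hbs1, stood 0.24 ± 0.21 above wild type (limma, adjusted p = 0.463).

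Among 51 genes of initiation factors and poly(A)-binding proteins 14 were tested, of which limma called 6 higher and 0 lower, while 8 did not pass. That is 42.9% higher, beside the 14.6% of all tested features. At an unadjusted p under 0.05 the counts were 10 higher and 1 lower, and after centring on the median 10 were called higher. In 4 of the 6 genes called, wild type lay under the dim level, so those genes passed the filter only because the lines were higher, and their p-values are not given. Of the other 10 tested genes 2 were called higher, again beside 14.6% of all tested features, and nothing is read from so few genes. EIF4A-2 (AT1G54270), an RNA helicase that unwinds the 5′ end of mRNA, read 4.87 in wild type, against 6.93 in line 41 and 6.41 in line 45, and was at least 2.04-fold higher in the lines. AT2G40290, for the alpha subunit of eIF2, was at least 2.73-fold higher. AT5G54940, a gene of eIF1, was at least 1.80-fold higher, and AT5G25754, for an eIF3 subunit, at least 1.67-fold. A second feature of AT5G54940, with 4.59 in wild type, was at least 1.44-fold higher.

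The 2 genes that rose from a wild-type value above the dim level, AT4G27130 and AT5G54760, also encode eIF1, which helps to select the start codon. AT4G27130 read 8.33 in wild type, against 9.52 in line 41 and 9.60 in line 45 (log2 change 1.23 ± 0.23, adjusted p = 0.00826 by limma). AT5G54760 read 7.997, 9.25 and 9.17 in the same order (1.22 ± 0.23, adjusted p = 0.00842). After quantile normalization the log2 changes were smaller and under 2-fold, 0.79 for AT4G27130 and 0.87 for AT5G54760. Both still passed there (adjusted p = 0.0204 and 0.0126 by limma). The genes nearest the threshold that did not pass were AT5G35680 of eIF1A (0.82, adjusted p = 0.0501 by limma), AT5G44320 of eIF3 (0.75, adjusted p = 0.0543), AT1G36730 of eIF5 (0.75, adjusted p = 0.0624) and AT2G18720 of eIF2 (-0.58, adjusted p = 0.0756).

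Aminoacyl-tRNA synthetases make the charged tRNAs that EF1-alpha carries. Of 22 such genes 12 were tested, of which 3 rose and 0 fell by limma, or 25.0% higher beside the 14.6% of all tested features, and 8 were higher and 0 lower at an unadjusted p under 0.05. The count moved with the scaling, to 5 after quantile normalization, 7 after centring on the median and 2 after centring on the 75th percentile. The list median was 0.63. AT5G27470, the seryl-tRNA synthetase gene, read 5.80 in wild type, against 7.64 in line 41 and 7.61 in line 45 and rose 3.54-fold (log2 change 1.83 ± 0.21, adjusted p = 0.00107 by limma). AT1G09620, for leucyl-tRNA synthetase, rose 2.15-fold (1.11 ± 0.24, adjusted p = 0.0158). AT3G62120, for prolyl-tRNA synthetase, rose 1.67-fold (0.74 ± 0.22, adjusted p = 0.0476), and a second, dimmer feature of the gene gave 1.78. Its adjusted p reached 0.0569 when arrays were centred on the 75th percentile. AT1G72550 (0.71, adjusted p = 0.0549 by limma) and AT4G39280 (0.78, adjusted p = 0.0854), for the subunits of phenylalanyl-tRNA synthetase, did not pass. Nor did AT3G04600 of tryptophanyl-tRNA synthetase (0.63, adjusted p = 0.0873 by limma). AT5G26830 of threonyl-tRNA synthetase, among the 12 tested and the 8 higher at an unadjusted p, did not pass either. Its wild-type value of 5.35 lay under the dim level, so it passed the filter only because the lines were higher. It was at least 1.24-fold higher in the lines, and its p-value is not given.

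Of 7 genes of bacterial-type elongation factors of the organelles 4 had a feature and 3 were tested, and the other loci of the list were not measured. Of the 3 tested, 0 passed limma, with 0 at an unadjusted p under 0.05. AT2G45030 read 5.31, 4.97 and 4.85 in wild type, line 41 and line 45 (log2 differences -0.34 and -0.46) and lay under the dim filter. AT1G45332, for a mitochondrial elongation factor G, read 5.52 in wild type, under the dim level, and passed the filter only because the lines were higher. It was at least 1.24-fold higher in the lines, and its p-value is not given. AT4G02930, for mitochondrial EF-Tu, the organelle's counterpart of EF1-alpha, stood at 0.13 ± 0.21 (adjusted p = 0.708 by limma). AT4G11120, for the exchange factor EF-Ts of EF-Tu, stood at -0.083 ± 0.22 (adjusted p = 0.828 by limma). The difference between cytosolic and organellar genes was not tested. Of 17 genes used as references for expression 3 were tested and 2 rose, against 14.6% of all tested features called higher. These were GAPC2 (AT1G13440) with a log2 change of 4.33 ± 0.29 and PEX4 (AT5G25760, also known as UBC21) with 1.30 ± 0.22 (adjusted p = 0.000288 and 0.00557 by limma, and 0.105 and 0.116 without the dim filter), while AT4G34270, of the TIP41 family, stood at -0.18 ± 0.21 (adjusted p = 0.604).

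**Figure D4:**
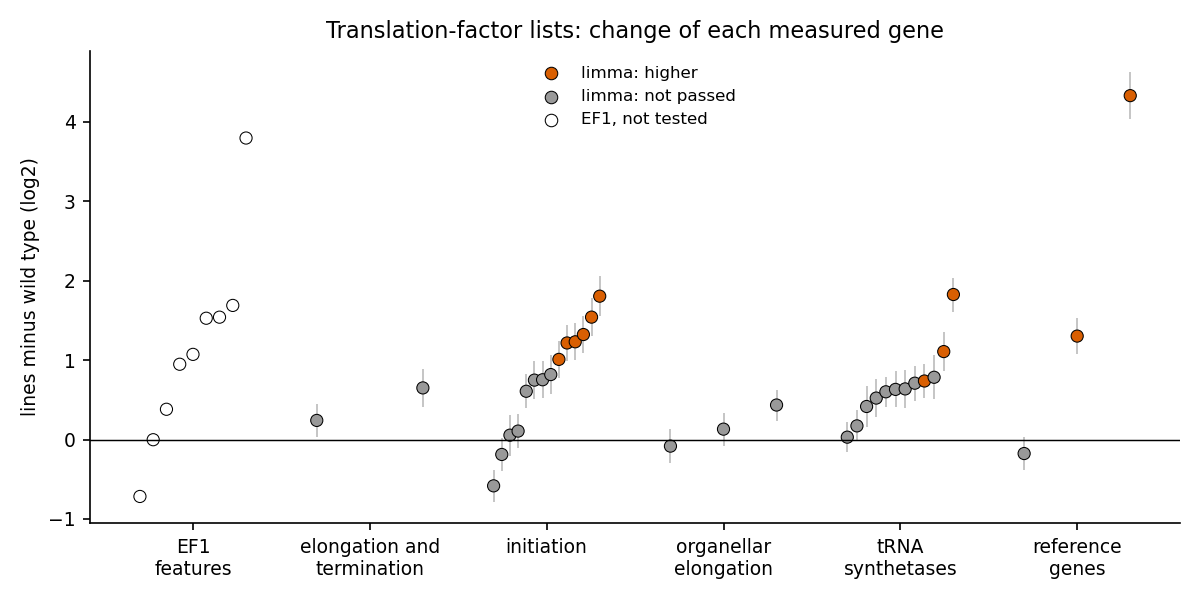
Log2 difference of the lines from wild type for each EF1 feature (open circles, not tested) and each tested gene of the translation-factor and reference lists, with bars for the standard error by limma. Genes that passed limma are orange and the others grey. Called higher were 6 of 14 initiation genes (4 of them dim in wild type), 3 of 12 synthetase genes and 2 of 3 reference genes. Over all tested features 14.6% were called higher.

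The genes that lie beside EF1 loci in the RefSeq order were measured in 10 of 17 cases outside the family, and 5 of these were tested. AT5G60400, beside AT5G60390, read 9.08 in wild type, against 7.94 in line 41 and 8.39 in line 45 and fell by 0.92 on the log2 scale (SE 0.27, adjusted p = 0.0435 by limma). AT5G12120, beside AT5G12110, read 7.30, 8.62 and 8.58 in the same order and rose by 1.30 (SE 0.22, adjusted p = 0.0057). Of the 5 tested neighbours 1 was thus called higher and 1 lower, beside 14.6% and 7.27% of all tested features. Nothing is read from so few genes. Without the dim filter neither passed (adjusted p = 0.210 for AT5G60400 and 0.105 for AT5G12120 by limma). AT5G12100 (0.019), AT5G19500 (0.32) and AT1G09645 (-0.24) did not pass, with adjusted p of 0.960, 0.386 and 0.451 by limma.

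Over the EF1 features the median difference was 1.202 in line 41 and 1.18 in line 45. The named genes outside the family whose pair of log2 differences lay nearest to this point, by Euclidean distance over these 2 differences, were AT1G18010, the clock gene GI, AT4G38660, the histone H2B gene HTB4, F2KP, an enzyme gene of sugar phosphate metabolism, and AT3G62530. Their distances ran from 0.0093 to 0.045, and 26 of 9672 named genes lay within 0.1. The pair of differences was 1.19 and 1.17 for AT1G18010, and 1.197 and 1.17 for GI. With 3 arrays that share 1 control such likeness describes these arrays only.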

How the data were processed

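The authors deposited 1 value per feature and sample, taken as log2 expression because all values lie between 4.04 and 14.8 with none below 0. Not given in the sources used here were the log base, the platform processing and the normalization, and another base would change the folds. The column medians lay within 0.1 of each other and the values were kept as deposited, though the 99th percentile of wild type was 9.62 against 10.63 and 10.54 in the lines. Features were paired with genes through a platform annotation by Entrez ID (17579 named by 1 gene, 0 by several, 11206 unnamed here), and 17491 were found in the RefSeq table of TAIR10.1, used for names and gene order only.

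Values under 4.68, the 5th percentile, were raised to it, and features with a mean under the 40th percentile of feature means (5.64) were left out. Of several features of a gene the brightest was tested, which left 16905. Lines and wild type were set against each other with R 4.3.3 and limma 3.58.1, a two-sided test by lmFit and eBayes with an intensity trend. Calls took a Benjamini-Hochberg adjusted p under 0.05, with 1 residual degree of freedom, from the lines. That residual is the difference between the 2 lines, which eBayes draws toward the spread of all features (median prior degrees of freedom 6.76). P-values and standard errors therefore hold no spread of wild type and rest largely on other features. They speak for these samples only, and the number of arrays limits the precision. The code was tested on data with known changes. Where wild type lay under the dim level, folds are bounds against that level. The log2 differences of AT1G07930 and those drawn in the figures are as measured.

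EF1 genes and gene lists were chosen with earlier results of these data known. AT1G29880 was left out of the synthetases for its RefSeq synonym. Genes named are all EF1 loci, list members that passed (at most 8 a list), up to 4 nearest the threshold, the neighbours of EF1 loci and the 6 genes of nearest pattern. Alternatives were 3 other scalings, other floors and dim filters, all features, limma without trend and each line left out.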

Additional observations from a re-analysis of the deposited data

Results flagged for a closer look

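Of 39 features of EF1 and of the other tested genes named, 1 was lower than wild type in one line and higher in the other. This was the EF1B-beta gene AT2G18110, with -0.14 for line 41 and 0.14 for line 45 on the log2 scale, or -0.28 for line 41 minus line 45. The difference was not tested, since each line had 1 array, and 32.0% of tested features lay further apart.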

How the results depend on the processing

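The count of 4 EF1 features at least 2-fold higher stayed within 1.5 times under the alternatives run. The median log2 difference over all 9 EF1 features, 1.07, became 1.03 after quantile normalization, 1.13 after centring on the median and 1.01 on the 75th percentile, and with 1 line left out it was 1.18 to 1.202. Quantile normalization gave 2660 lower calls over all features in place of 1229, and 49.4% of calls were then higher, against 66.8% as deposited, 69.7% after centring on the median and 58.1% on the 75th percentile. Synthetase genes called higher became 5 after quantile normalization and 7 after centring on the median, where initiation genes became 10. Centring on the 75th percentile gave 1 lower initiation gene (AT2G18720), and AT5G12100, which did not pass, went to -0.045. Without the dim filter 0 features were called higher and 0 lower by limma, over all features and in the initiation, synthetase and reference lists, with 7167 at an unadjusted p under 0.05; the cause was not tested. Of the 30 named genes tested, 13 lost their call there. No paired analysis was possible because wild type and the lines share no replicate number. Limma with either line left out has no residual degrees of freedom and was not run.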
